A study of Mus musculus with 8 samples.

Results

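Genes of endoplasmic reticulum (ER) protein folding and of the unfolded protein response were followed in mouse liver. The set was a list of 36 named genes, each read by the brightest array probe whose RefSeq transcript belonged to it. Of the 36, 33 had usable values and all 33 passed the filter on dim genes, out of 18316 genes named on the arrays, 14142 of which passed. Pdia3 and Dnajb11 had no probe matched through an accession. The single Xbp1 probe was marked as an uneven spot on 1 array, so Xbp1 is given apart. The members fall into 15 measured chaperones and folding enzymes, 6 genes of ER-associated degradation, 5 sensors and effectors and 7 genes of retrieval, translocation and export.

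Hepatocytes secrete most plasma proteins, and these are folded in the ER. When unfolded protein builds up there, the membrane sensors IRE1 (Ern1), PERK (Eif2ak3) and ATF6 signal to the nucleus and to the translation machinery. The spliced XBP1 and cleaved ATF6 factors bind ER stress response elements (ERSE) and related sequences in the promoters of chaperone, degradation and export genes, while PERK acts through ATF4 on Ddit3 and Ppp1r15a.

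Total RNA of liver was compared on 8 one-colour arrays, 1 for each of 2 genotypes at 0, 24, 36 and 48 h after partial hepatectomy, an operation that takes out part of the liver and sets the remaining hepatocytes dividing. The Mxcre+ livers were described by the submitters as Survivin-deleted and the Mxcre- livers as wild type. Survivin is the product of Birc5, and Mxcre is a Cre recombinase driven by an interferon-responsive promoter, which is active in blood cells as well as in liver. Mice of both genotypes had a 129/SV/B6 background, were irradiated, received a bone marrow transplant and were later given poly(IC), the inducer of Mxcre. No label tells the sex of a sample apart or says whether an array held 1 animal or a pool, and no age is given. With 1 array per genotype and time there are no replicate livers, so a p-value here measures how steady a difference was over times or genotypes. Each level is the log2 intensity less that of the 75th percentile of its array, and differences are log2 differences, Mxcre+ minus Mxcre- or later minus earlier.

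Promoter sequences were available for 30 of the 36 members and are shown where a match to an ER stress motif coincided with a member that passed a test or differed over 1.5-fold between the genotypes. The windows were the 250 bases before and the 50 after the annotated start, from RefSeq (GRCm38.p6), searched on both strands. The ERSE, written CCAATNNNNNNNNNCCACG, matched in 9 of 30 members (30%) and in 37 of 27025 genes with a window (0.137%). Its variant ERSE-II, ATTGGNCCACG, matched in 2 members (6.67%) and 12 of all genes (0.0444%), and the core of the unfolded protein response element (UPRE), TGACGTGG, in 2 members (6.67%) and 193 of all genes (0.714%). Matches of different motifs overlapped in 3 windows of the whole table and in no member. A match is a description of letters, not a shown site of binding. The members were listed as genes of this response, whose factors bind these motifs. Their higher share of matches therefore comes with the choice of the list and is not a result of these arrays. Each sequence below lies before the start on the plus strand, with the motif in capitals. Creld2 and Derl3 (ERSE on the strand opposite to the gene) are at chr15:88819490-88819568 and chr10:75893212-75893290. Dnajc3, Hspa5 and Syvn1 (ERSE on the strand of the gene) are at chr14:118937797-118937875, chr2:34771995-34772073 and chr19:6046502-6046575. Herpud1 (ERSE-II) is at chr8:94386347-94386417. Kdelr3 (UPRE core, opposite strand) is at chr15:79516348-79516407 and Sec24d (UPRE core) at chr3:123267440-123267495.
Creld2: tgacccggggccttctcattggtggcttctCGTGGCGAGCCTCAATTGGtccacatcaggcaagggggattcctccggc
Derl3: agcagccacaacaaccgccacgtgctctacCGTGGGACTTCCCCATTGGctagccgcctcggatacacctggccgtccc
Dnajc3: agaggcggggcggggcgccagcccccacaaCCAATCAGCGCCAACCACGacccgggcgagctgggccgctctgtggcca
Hspa5: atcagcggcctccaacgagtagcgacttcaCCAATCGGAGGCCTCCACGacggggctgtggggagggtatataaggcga
Syvn1: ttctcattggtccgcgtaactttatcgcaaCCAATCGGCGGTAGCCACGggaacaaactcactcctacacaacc
Herpud1: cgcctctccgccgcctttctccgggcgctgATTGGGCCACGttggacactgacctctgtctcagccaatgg
Kdelr3: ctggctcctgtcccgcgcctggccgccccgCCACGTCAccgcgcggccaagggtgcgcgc
Sec24d: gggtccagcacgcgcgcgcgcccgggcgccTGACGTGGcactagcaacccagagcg

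**Figure D1:**
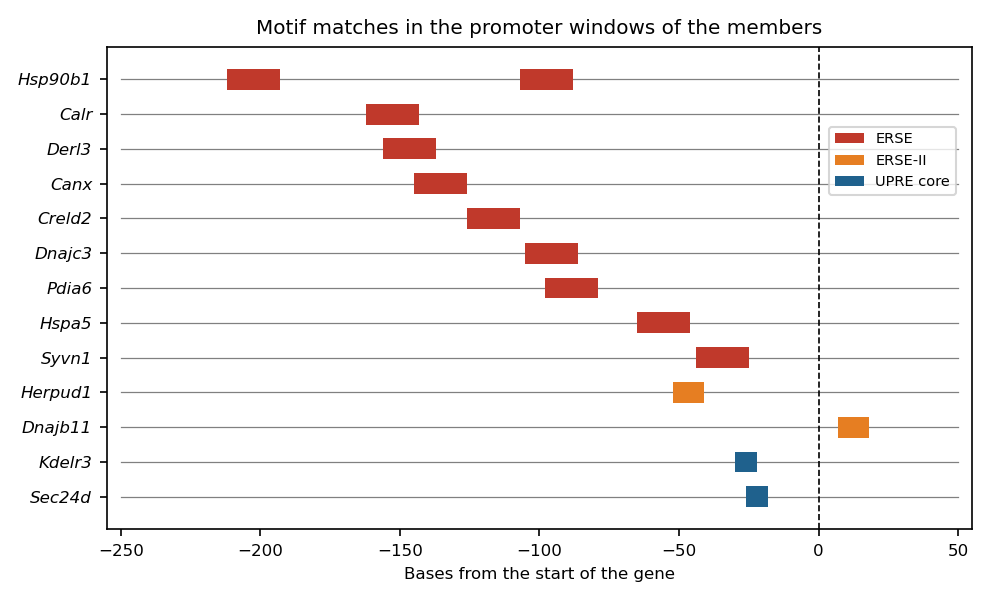
Position of motif matches in the promoter windows of the members, in bases from the annotated start (dashed line at 0). Each bar is a match to the ERSE, ERSE-II or UPRE core, and grey lines are the windows. Hsp90b1 held 2 ERSE matches, and the matches of Syvn1, Kdelr3 and Sec24d lay closest before the start.

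Several facts of the whole series bear on every result below. Birc5 was at -2.80, -3.49, -1.58 and -1.20 at 0, 24, 36 and 48 h in Mxcre+ liver, against -0.25, -0.55, 1.53 and 5.03 in Mxcre- liver. It was lower in Mxcre+ liver at each time, as the labels have it; whether its probe lies in the deleted part is not given. The 8 measured hepatocyte markers of 10 listed were above background on all arrays, with summed linear levels of 2244 to 2697 in Mxcre+ and 2569 to 2821 in Mxcre- livers. Plasma cells, which also express many ER chaperones, had marker sums of 20.9 to 32.8 in Mxcre+ and 22.1 to 32.3 in Mxcre- livers (8 of 9 markers measured), sums carried mostly by Sdc1 and Txndc5. Of the plasma cell markers Prdm1 and Irf4 were not above background on any array and Tnfrsf17 on 1, the Mxcre- array of 0 h. Jchain and Pou2af1 were lower in Mxcre+ liver at 0 h (-1.07 and -0.87) and higher in it at 36 h (1.22 and 0.39). Of the 5 plasma cell markers that passed the filter, 1, 3, 3 and 1 read higher in Mxcre+ liver at 0, 24, 36 and 48 h. The 1 at 0 and 48 h was Txndc5 (0.43, 0.16, -0.74 and 0.06 at the 4 times). Txndc5 is also counted among the wider ER pathway genes below, so this marker list is not separate from them. Their median differences were -0.37, 0.16, 0.06 and -0.18. The 4 Y-linked genes were not well above background on both 0 h arrays and on the Mxcre+ arrays of 36 and 48 h, whereas 3 or 4 of them were on the other arrays. The 0 and 24 h arrays shared 1 slide and the 36 and 48 h arrays another, so slide and time cannot be told apart for 36 or 48 h against 0 h. In whole liver, more cells of a type and more RNA per cell cannot be told apart.

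On the paired arrays, all 15 measured chaperones and folding enzymes and all 6 degradation genes read higher in Mxcre+ than in Mxcre- liver at 0 and 24 h. At 36 h 12 of the 15 and 5 of the 6 did, and at 48 h 4 of the 15 and 2 of the 6. At 0 h, 11 of 33 members were over 1.5-fold higher, against a background of 3.32% of all genes above background on both arrays, and 0 were as much lower, against 7.29%. At 24 h the counts were 11 higher (background 2.91%) and 0 lower (3.98%). At 36 h they were 8 higher (6.74%) and 0 lower (6.89%), and at 48 h 2 higher (6.69%) and 3 lower (8.74%). The median difference over the 33 members was 0.40, 0.40, 0.26 and -0.04 at 0, 24, 36 and 48 h, beside -0.02, 0.01, -0.04 and -0.03 over all 14142 genes. Positive differences were seen for 32, 32, 28 and 14 of the 33. These pairs of arrays have no test.

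**Figure D2:**
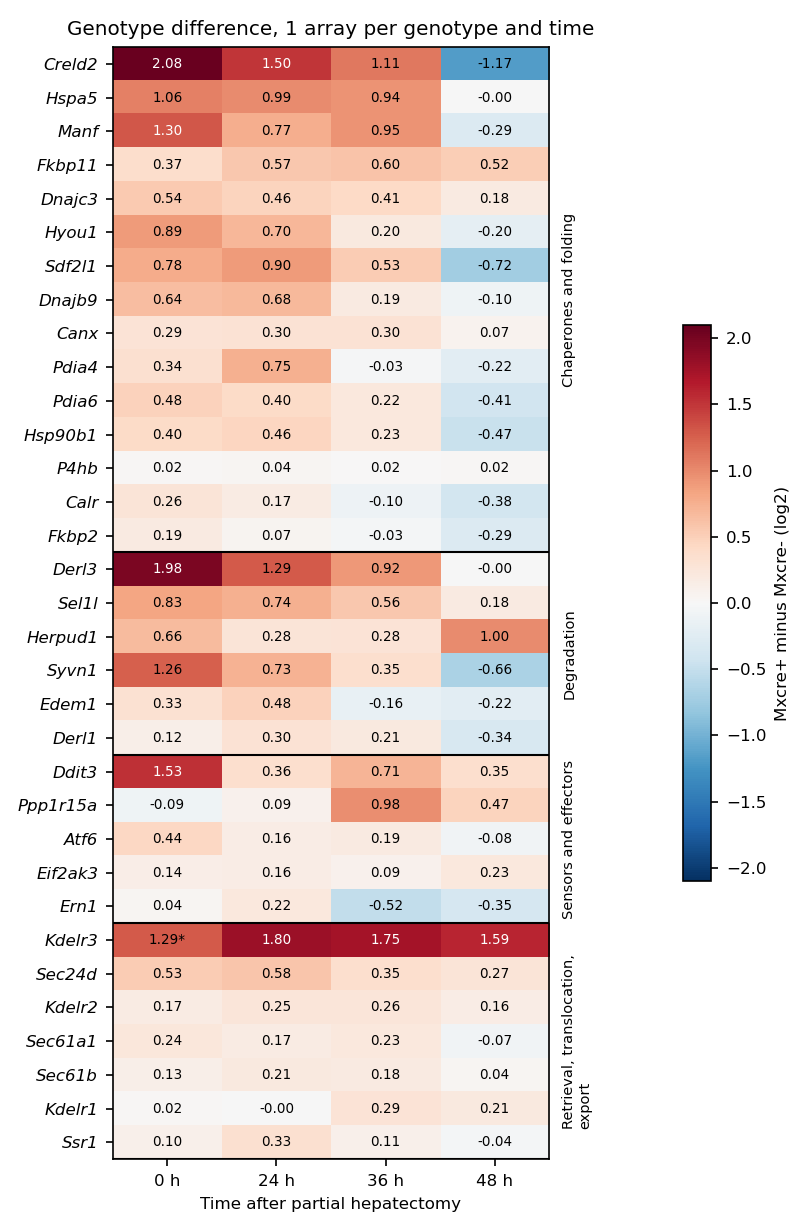
Difference between Mxcre+ and Mxcre- liver (log2) for the 33 measured members at 0, 24, 36 and 48 h after partial hepatectomy, grouped by role and sorted by their mean difference; the star marks a pair in which at least 1 array was not well above background. Red cells fill most of the first 2 columns, and in the 48 h column 19 of 33 members are below 0.

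Among the chaperones the widest difference was that of Creld2, an ER-resident protein with disulfide isomerase activity. Its level was 6.58, 6.97, 5.89 and 4.34 at 0, 24, 36 and 48 h in Mxcre+ liver, against 4.50, 5.47, 4.78 and 5.51 in Mxcre- liver. It was thus higher in Mxcre+ liver by 2.08, 1.51 and 1.11 at the first 3 times and lower at 48 h, where the difference was -1.17. Hspa5 encodes BiP, the Hsp70 chaperone of the ER lumen that also holds the 3 sensors inactive. BiP message was at 6.75, 7.52, 6.84 and 6.02 in Mxcre+ liver, against 5.69, 6.53, 5.90 and 6.02 in Mxcre- liver. The gap of 0.94 to 1.06 at the first 3 times had closed at 48 h. Manf, a secreted ER stress-inducible protein, followed the same course, with 4.33, 4.86, 4.46 and 3.47 in Mxcre+ liver, against 3.03, 4.10, 3.51 and 3.76 in Mxcre- liver. Creld2 and Hspa5 are among the members shown above with an ERSE.

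Other folding genes differed by less. Sdf2l1, which works with the BiP co-chaperone Dnajb11, was at 2.94, 4.56, 3.47 and 1.85 in Mxcre+ liver, against 2.15, 3.66, 2.94 and 2.57 in Mxcre- liver. Its difference went past 1.5-fold upward at 0 and 24 h and downward at 48 h (-0.72). Hyou1, a nucleotide exchange factor for BiP, and Dnajb9, a J-domain co-chaperone, were past 1.5-fold at 0 h (0.89 and 0.64) and 24 h (0.70 and 0.68) and not afterwards. Pdia4, a disulfide isomerase, was past it at 24 h alone (0.75). The proline isomerase Fkbp11 had a difference of one sign throughout, 0.37, 0.57, 0.60 and 0.52 at the 4 times, past 1.5-fold at 36 h. P4hb, the major protein disulfide isomerase, had nearly equal levels in the 2 genotypes, with differences of 0.02 to 0.04. The lectin chaperones Calr and Canx, the Hsp90-family chaperone Hsp90b1, the co-chaperone Dnajc3, the disulfide isomerase Pdia6 and the proline isomerase Fkbp2 stayed within 1.5-fold at all 4 times. Of these 6, Hsp90b1 and Pdia6 were positive at the first 3 times and negative at 48 h (-0.47 and -0.41). These are readings of the brightest probe. Dimmer probes went past 1.5-fold for Hsp90b1 (0.64 at 24 h), Dnajc3 (0.995 at 0 h) and Pdia6 (0.65 at 0 h and, on another probe, -0.96 at 48 h). A dimmer Fkbp11 probe was past it at 36 h (0.81) and also at 48 h (0.69). Both dimmer Canx probes were negative at 36 h (-0.05 and -0.10) and 48 h (-0.33 and -0.36), where the brightest was positive.

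In ER-associated degradation, misfolded proteins are drawn back through the ER membrane and ubiquitylated. Derl3, a derlin thought to form part of that channel, was at 1.60, 4.92, 4.03 and -0.14 in Mxcre+ liver, against -0.37, 3.63, 3.12 and -0.14 in Mxcre- liver. The difference of 1.98 at 0 h narrowed to 1.29 at 24 h and 0.92 at 36 h, and the 2 levels were the same at 48 h. Syvn1, the membrane ubiquitin ligase HRD1, was at 6.77, 6.64, 5.90 and 5.31 in Mxcre+ liver, against 5.51, 5.90, 5.54 and 5.97 in Mxcre- liver. Its pair differed by 1.26, 0.73, 0.35 and -0.66. A second, dimmer Syvn1 probe gave 1.55, 0.54, 1.42 and 0.18, so the size at 36 h and the sign at 48 h depend on the probe. Sel1l, the partner of HRD1, was higher by 0.83 and 0.74 at 0 and 24 h, by 0.56 at 36 h and by 0.18 at 48 h. On its dimmer probe Sel1l stayed within 1.5-fold, with 0.485, 0.479, 0.512 and 0.064. Herpud1, a scaffold of the HRD1 complex whose promoter holds the ERSE-II shown above, went the other way at 48 h. Its level was 6.70, 5.87, 5.78 and 5.43 in Mxcre+ liver, against 6.04, 5.59, 5.50 and 4.43 in Mxcre- liver, a difference of 0.66 at 0 h and of 1.00 at 48 h. Edem1 and Derl1 stayed within 1.5-fold by their brightest probes, while a dimmer Edem1 probe was at -0.75 at 48 h.

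**Figure D3:**
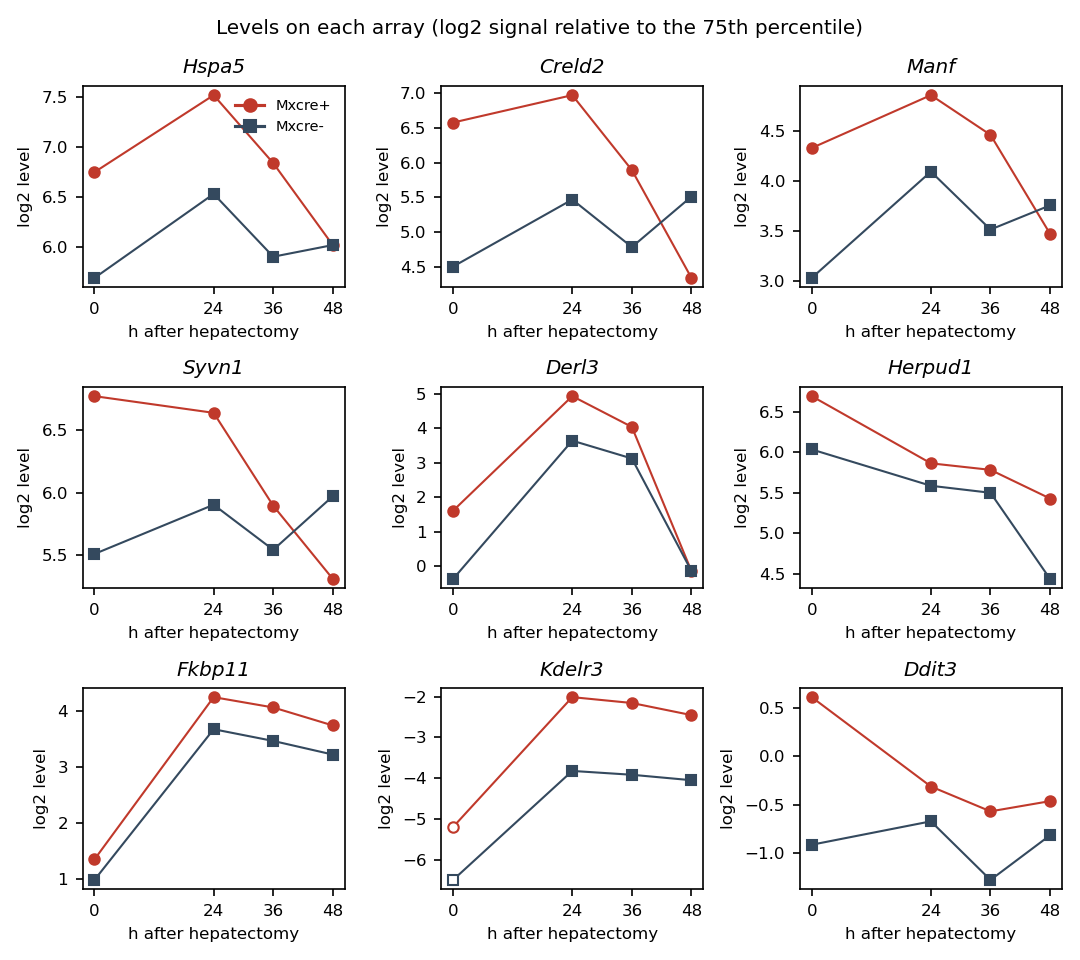
Level of 9 members on each array (log2 signal, with the 75th percentile of each array at 0) by hours after partial hepatectomy, in Mxcre+ (red circles) and Mxcre- (dark squares) liver; open symbols were not well above background. Hspa5, Creld2, Manf and Syvn1 meet or cross between 36 and 48 h, while Herpud1, Fkbp11 and Ddit3 lie higher in Mxcre+ liver at all 4 times and Kdelr3 at the 3 times with filled symbols.

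The 3 sensors showed no large difference. Atf6, Ern1 and Eif2ak3 stayed within 1.5-fold of the Mxcre- level at all 4 times, with differences between -0.52 and 0.44. Ddit3, the transcription factor CHOP downstream of PERK, was at 0.61, -0.31, -0.57 and -0.46 in Mxcre+ liver, against -0.91, -0.67, -1.28 and -0.81 in Mxcre- liver. Its difference was 1.53, 0.36, 0.71 and 0.35 at the 4 times. Ppp1r15a, the phosphatase subunit GADD34 that restores translation after PERK signalling, was past 1.5-fold at 36 h alone (0.98). Xbp1 was at 2.93, 3.27 and 2.53 at 24, 36 and 48 h in Mxcre+ liver, against 2.92, 3.11 and 2.65 in Mxcre- liver. At 0 h the spot marked as uneven read 1.31 in Mxcre+ liver, against 2.21 in Mxcre- liver. The arrays do not separate spliced from unspliced Xbp1.

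Of the genes of retrieval, translocation and export, Kdelr3 was the one past 1.5-fold. It encodes a receptor that returns escaped chaperones carrying a KDEL-type tail from the Golgi to the ER. Kdelr3 was at -2.02, -2.16 and -2.45 at 24, 36 and 48 h in Mxcre+ liver, against -3.82, -3.91 and -4.04 in Mxcre- liver, and was not well above background on either 0 h array. The differences were 1.80, 1.75 and 1.59, still past 1.5-fold at 48 h, where the levels of Hspa5 and Derl3 were the same in both genotypes to 2 decimals and Creld2 was lower in Mxcre+ liver. By their brightest probes Kdelr1, Kdelr2, Sec61a1, Sec61b, Ssr1 and Sec24d stayed within 1.5-fold at all 4 times, Sec24d with the widest of their differences (0.53 and 0.58 at 0 and 24 h). Dimmer probes went past it for Sec61a1 (1.145 at 36 h) and Ssr1 (0.77 at 0 h and, on another probe, -0.89 at 48 h). Of the 7 genes, 7, 6, 7 and 5 were positive at the 4 times.

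Averaged over the 4 times, no member passed the test of the genotype difference. In limma's additive model 0 of 33 members were called higher (background 0%) and 0 lower (background 0%) at an adjusted p of 0.05, while 11 members had an unadjusted p under 0.05, all of them higher in Mxcre+ liver. Over all genes 931 had such a p, 326 higher and 605 lower. The 6 members with the smallest p were Kdelr3 (1.61 ± 0.12, SE, limma adjusted p 0.428), Fkbp11 (0.51 ± 0.09), Sec24d (0.43 ± 0.10), Sel1l (0.58 ± 0.14), Dnajc3 (0.40 ± 0.10) and Herpud1 (0.55 ± 0.16), the last 5 at a limma adjusted p of 0.751. With its dim 0 h arrays set at the background level, the Kdelr3 difference was 1.23. Under normexp background correction with quantile normalization it was 0.25 (limma adjusted p 0.7), so the size for this dim gene depends on the background correction. Fkbp11, Sec24d, Sel1l, Dnajc3 and Herpud1 were positive at all 4 times, with Sel1l and Dnajc3 down to 0.18 at 48 h. Creld2, with the widest single difference, had 0.88 ± 0.56. Of the 33 members 30 had a positive average difference, with a median of 0.24 beside -0.02 over all genes.

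The slides gave different sizes for that average. On the slide of 0 and 24 h the median was 0.44 and all 33 members were positive. On the slide of 36 and 48 h it was 0.08, with 22 of 33 positive. Without the 48 h pair it was 0.36, with 32 of 33 positive. The test of the change itself, later (36 and 48 h) minus earlier (0 and 24 h), called 0 members higher (background 0%) and 0 lower (background 0%) in limma's interaction model. Unadjusted p-values under 0.05 went to 6 members, with Edem1, Hyou1, Dnajb9, Ern1 and Pdia4 lower and Ppp1r15a higher (limma adjusted p 0.575 or more). The change was -0.60 ± 0.16 for Edem1, -0.79 ± 0.22 for Hyou1 and 0.72 ± 0.25 for Ppp1r15a. Creld2 had the most negative estimate, -1.82 ± 0.87 (limma adjusted p 0.623). Over the members 26 of 33 changes were negative, with a median of -0.29 beside -0.03 over all genes. In this contrast the genotypes are also unequal in their Y-linked genes, which were not above background in Mxcre+ livers but were in Mxcre- livers at 36 and 48 h. The part of slide, time and sex in it cannot be told apart.

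Markers of other cells moved with genotype and time as well. The 7 measured neutrophil markers of 8 listed had a mean log2 level of -2.52, -1.38, 0.76 and 1.07 in Mxcre+ liver, against 0.65, -0.10, -0.67 and -0.94 in Mxcre- liver. Their sums ranged over 7.76 to 81.3 in Mxcre+ and 23.6 to 62.9 in Mxcre- livers, with 5 to 7 of the 7 above background. All 7 neutrophil markers read lower in Mxcre+ liver at 0 and 24 h and higher in it at 48 h. At 36 h 5 of the 7 read higher and 2 lower, Mmp8 (-0.08) and Retnlg (-0.24). The 7 measured macrophage markers of 8 listed had pair medians of -0.78, -0.48, 0.90 and 0.38 at the 4 times, with summed levels of 13.3 to 24.8 in Mxcre+ and 15.2 to 32.3 in Mxcre- livers. The 8 stellate cell and fibroblast markers had pair medians of 0.26, 0.28, 0.12 and -0.60, beside 0.40, 0.40, 0.26 and -0.04 for the members, and 4 of the 8 were over 1.5-fold lower at 48 h. Their sums were 18.2 to 27.4 in Mxcre+ and 15.9 to 32.8 in Mxcre- livers. The part of these cells in the differences of the members was not tested. The summed level of the hepatocyte markers was lowest on the Mxcre+ array of 48 h (2244, against 2644 in Mxcre- liver).

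The members were also split by whether their window held an ERSE. Medians over the 9 members with a match were 0.54, 0.46 and 0.35 at 0, 24 and 36 h, beside 0.33, 0.35 and 0.24 over the 18 measured members whose window held none. At 48 h the medians were -0.38 with a match (2 of 9 positive) and 0.11 without (11 of 18 positive). The 18 without an ERSE still include Herpud1 (ERSE-II), Kdelr3 and Sec24d (UPRE core), with 1.00, 1.59 and 0.27 at 48 h. No test was made of this split.

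More members passed the tests of time after surgery than that of genotype. At 24 h against 0 h, 9 of 33 members rose at an adjusted p of 0.05 in limma's additive model (background 4.49%) and 0 fell (background 5.3%, with 2 members lower at an unadjusted p under 0.05). Those that rose were Fkbp11, Dnajc3, P4hb, Derl3, Kdelr3, Sec24d, Sec61a1, Sec61b and Ssr1. With 1 of the 8 arrays left out at a time, the median over the members was 0.54 to 0.79. The calls were lost, in the members and in all genes alike, without Mxcre- 24 h, Mxcre+ 0 h or Mxcre+ 24 h. In the other fits fewer members and fewer of all genes passed. Each such fit leaves 1 array at the time concerned. Fkbp11 was at 1.35, 4.24, 4.06 and 3.74 at 0, 24, 36 and 48 h in Mxcre+ liver, against 0.98, 3.67, 3.46 and 3.22 in Mxcre- liver. It rose by 2.79 ± 0.12 at 24 h, 2.59 ± 0.12 at 36 h and 2.31 ± 0.12 at 48 h (limma adjusted p 0.017, 0.00958 and 0.00323). Derl3, with the levels given above, rose by 3.66 ± 0.47 at 24 h (limma adjusted p 0.0243) and by 2.96 ± 0.47 at 36 h (0.0274), and at 48 h was at -0.76 ± 0.47 relative to 0 h. Kdelr3 rose at least 3.07-fold at 24 h, 2.83-fold at 36 h and 2.44-fold at 48 h against the background level of its dim 0 h arrays. These bounds were not tested. The fit used the measured dim signal at 0 h (limma adjusted p 0.017, 0.0121 and 0.00441). Under normexp background correction with quantile normalization Kdelr3 had 0.35, 0.34 and 0.27 and passed at none of the 3 times (limma adjusted p 0.0564, 0.0538 and 0.0889).

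**Figure D4:**
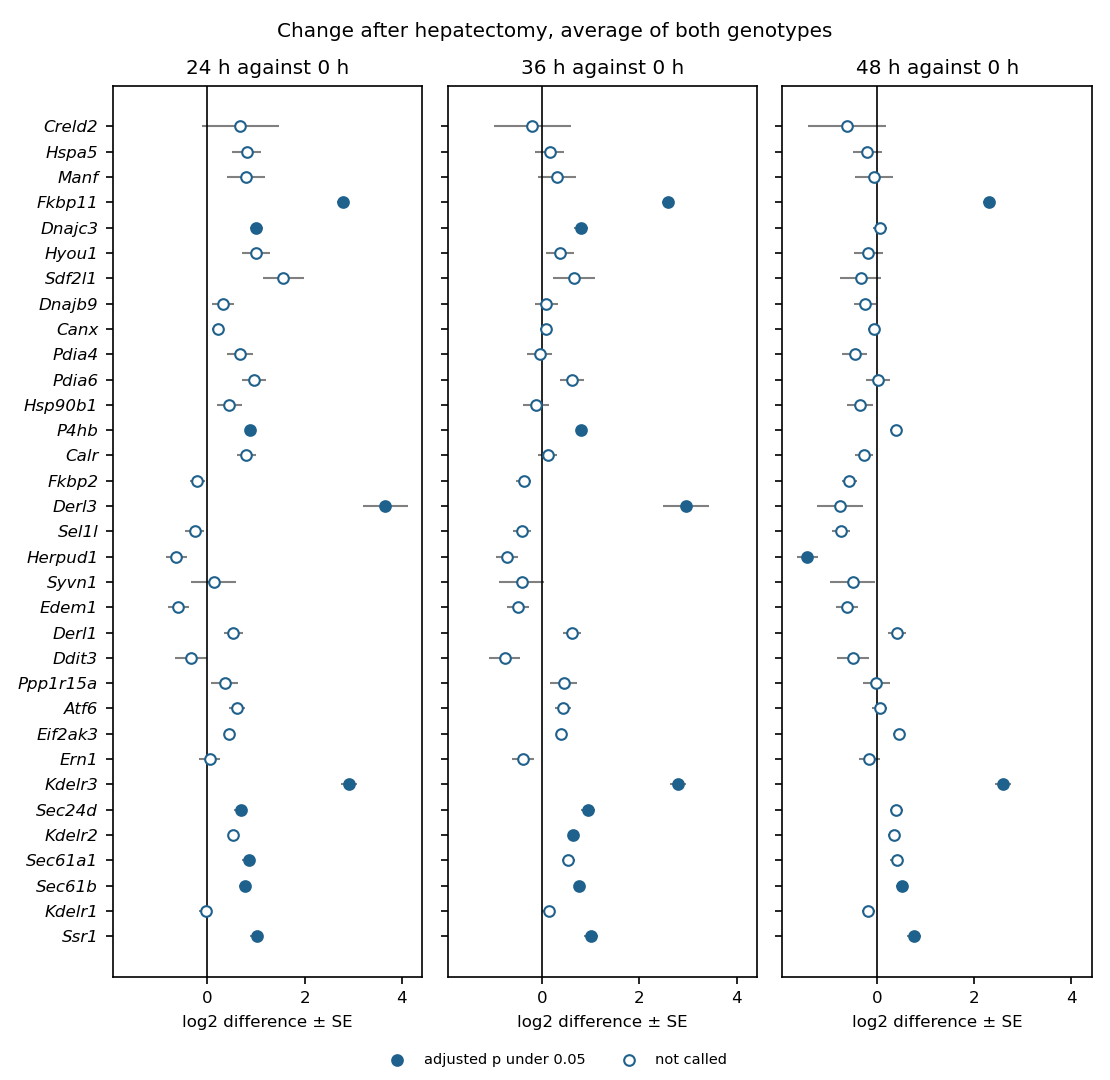
Change at 24, 36 and 48 h against 0 h (log2 difference, average of the 2 genotypes, ± SE of the limma fit) for the 33 members in the same order as the heat map; filled points passed an adjusted p of 0.05. Fkbp11 and Kdelr3 stay near or above 2.3 at all 3 times, Derl3 is at -0.76 at 48 h, and Herpud1 is the one filled point below 0. For Kdelr3 the plotted values use the measured dim signal at 0 h and are not bounds.

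Of the 7 genes of retrieval, translocation and export, 5 rose at 24 h (background 4.49%), 5 at 36 h (7.91%) and 3 at 48 h (8.13%). Sec61a1 and Sec61b are subunits of the channel through which new chains enter the ER. Sec61a1 was at 5.48, 6.30, 6.01 and 5.73 in Mxcre+ liver, against 5.24, 6.13, 5.79 and 5.80 in Mxcre- liver, and rose by 0.85 ± 0.13 at 24 h (limma adjusted p 0.031). Sec61b was at 5.62, 6.43, 6.41 and 6.09 in Mxcre+ liver, against 5.49, 6.22, 6.23 and 6.05 in Mxcre- liver. It rose by 0.77 ± 0.12 at both 24 and 36 h and by 0.52 ± 0.12 at 48 h (limma adjusted p 0.0297, 0.0255 and 0.0446). Ssr1, a subunit of the translocon-associated protein complex, rose by 1.02 ± 0.14, 1.00 ± 0.14 and 0.76 ± 0.14 at the 3 times (limma adjusted p 0.0259, 0.023 and 0.0291). Sec24d, a cargo-binding subunit of the COPII coat, rose by 0.69 ± 0.14 at 24 h and 0.94 ± 0.14 at 36 h (limma adjusted p 0.0468 and 0.0242). Its levels were 1.35, 2.07, 2.21 and 1.62 in Mxcre+ liver, against 0.83, 1.49, 1.86 and 1.36 in Mxcre- liver.

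Of the BiP co-chaperones, Dnajc3 was at 5.13, 6.10, 5.87 and 5.01 in Mxcre+ liver, against 4.58, 5.63, 5.45 and 4.83 in Mxcre- liver. It rose by 1.01 ± 0.14 at 24 h and 0.80 ± 0.14 at 36 h (limma adjusted p 0.0263 and 0.0308). P4hb was at 5.94, 6.83, 6.74 and 6.32 in Mxcre+ liver, against 5.91, 6.79, 6.72 and 6.30 in Mxcre- liver, and rose by 0.89 ± 0.11 and 0.80 ± 0.11 (limma adjusted p 0.0239 and 0.0226). Its genotype difference over the 4 times was 0.02 ± 0.08. Hspa5 had 0.81 ± 0.30 at 24 h, Sdf2l1 1.56 ± 0.43 and Hyou1 1.00 ± 0.29, none of which passed (limma adjusted p 0.15, 0.0846 and 0.0962).

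At 36 h against 0 h, 9 of 33 members rose (background 7.91%) and 0 fell (background 8.73%, with 1 member lower at an unadjusted p under 0.05 in limma). These were Fkbp11, Dnajc3, P4hb, Derl3, Kdelr2, Kdelr3, Sec24d, Sec61b and Ssr1. Kdelr2, another KDEL receptor, was at 2.90, 3.47, 3.58 and 3.25 in Mxcre+ liver, against 2.73, 3.22, 3.32 and 3.08 in Mxcre- liver, and rose by 0.63 ± 0.11 (limma adjusted p 0.0316). With its marked spot kept, Xbp1 had 1.43 ± 0.28 at 36 h (limma adjusted p 0.0383). It had 1.16 ± 0.28 at 24 h and 0.83 ± 0.28 at 48 h, neither of which passed (limma adjusted p 0.0687 and 0.107). These estimates rest in part on the marked 0 h spot of Mxcre+ liver, which read 1.31 against 2.21 in Mxcre- liver. At 48 h against 0 h, 4 of 33 rose (background 8.13%) and 1 fell (background 9.62%). The 4 were Fkbp11, Kdelr3, Sec61b and Ssr1, and the 1 was Herpud1, which fell by 1.44 ± 0.22 (limma adjusted p 0.0207) with the levels given above. With 1 array left out at a time, fewer members and fewer of all genes passed as risen at 36 and 48 h. Without the Mxcre+ or the Mxcre- array of 36 h, all calls at 36 h were lost, in the members and in all genes. The call of Herpud1 was lost when an array of 0 or 48 h was left out. At 48 h the share that rose was near that of all genes, with 3 of the 4 in retrieval and translocation. The median over the members was 0.67, 0.37 and -0.16 at 24, 36 and 48 h against 0 h, beside -0.03, -0.06 and -0.08 over all genes; that of 48 h was 0.06 without the Mxcre+ array of 0 h and 0.22 without that of 48 h. With quantile normalization, which also moved the median of all genes to -0.01, it was -9e-04, with 16 of 33 positive.

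Taken alone, the genotypes were alike in their change from 0 to 24 h and less so in that from 0 to 48 h. These changes start from unlike levels, since the median difference between the genotypes was 0.40 at 0 h, 0.40 at 24 h and -0.04 at 48 h. Relative to 0 h, 26, 21 and 11 of 33 members were higher at 24, 36 and 48 h in Mxcre+ liver, against 27, 25 and 26 in Mxcre- liver. The medians were 0.57, 0.27 and -0.42 in Mxcre+ liver, against 0.66, 0.42 and 0.33 in Mxcre- liver, with no test since each is a pair of arrays. At 48 h against 36 h, 0 members were called higher (background 0.099%) and 0 lower (background 0.00707%) by limma, with 0 higher and 5 lower at an unadjusted p under 0.05. Of the 33 estimates 30 were negative, with a median of -0.33 beside -0.02 over all genes (-0.13 without the Mxcre+ array of 48 h). Derl3 had the most negative, -3.72 ± 0.47 (limma adjusted p 0.127).

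Both 24 h arrays had Y-linked signal above background and both 0 h arrays had none. With the mean Y-linked level as a covariate, 0 members were called higher at 24 h, 5 at 36 h and 2 at 48 h. Of all genes, 1, 583 and 647 were called higher at these times, in place of 635, 1119 and 1150. Medians over the members were 0.24, 0.23 and -0.41 in place of 0.67, 0.37 and -0.16. In that fit 22, 19 and 11 of 33 estimates were positive. At 24 h Fkbp11 had 2.88 (limma adjusted p 0.0924) and Derl3 2.42 (0.119). Between the genotypes the mean Y-linked level differed widely at 36 h (-6.465 in Mxcre+, -1.56 in Mxcre- liver) and 48 h (-6.635 and -0.757). It was closer at 0 h (-6.094 and -6.386) and 24 h (-1.37 and -0.861). The covariate therefore cannot be told apart from a genotype difference that changes late, and the same slope also sets the values at 24 h.

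The wider ER pathway was read from 94 other genes on 6 lists, 93 of them tested. At 24 h against 0 h, 13 rose (background 4.49%) and 1 fell (5.3%) by limma. At 36 h 20 rose (7.91%) and 2 fell (8.73%), and at 48 h 12 rose (8.13%) and 4 fell (9.62%). Translocation and signal peptidase genes gave 7, 9 and 6 of 17 risen at the 3 times and none fallen. Among these were Spcs2, a signal peptidase subunit (1.20 ± 0.13 at 24 h, limma adjusted p 0.0217), and Srprb, a subunit of the signal recognition particle receptor (1.14 ± 0.14 at 24 h, 0.0237). Creb3l2, a membrane-bound transcription factor related to ATF6, rose by 1.36 ± 0.18 at 24 h (limma adjusted p 0.0243). Atf3, a stress-induced factor downstream of ATF4, rose by 2.98 ± 0.51 at 36 h and 2.41 ± 0.51 at 48 h (limma adjusted p 0.0308 and 0.04). Sec13 of the COPII coat (1.17 ± 0.14) and Edem2 of degradation (1.14 ± 0.13) rose at 36 h (limma adjusted p 0.0198 and 0.0192), and Ostc of the oligosaccharyltransferase rose at 48 h (0.80 ± 0.13, limma adjusted p 0.0227). Those that fell included Tmbim6 at 24 h (-0.85 ± 0.15, limma adjusted p 0.0367), Bbc3 (-1.28 ± 0.22, 0.0308) and Os9 (-0.64 ± 0.15, 0.0481) at 36 h, and Os9 (-0.80 ± 0.15, 0.0292), Ppp1r15b (-0.77 ± 0.13, 0.0236) and Lman2 (-0.75 ± 0.16, 0.0411) at 48 h. None of the 93 was called for genotype, with 16 at an unadjusted p under 0.05 in limma, all higher in Mxcre+ liver. Their pair medians were 0.16, 0.19, 0.16 and 0.03 at 0, 24, 36 and 48 h, and 2, 5, 5 and 7 of them were over 1.5-fold higher (background 3.32%, 2.91%, 6.74% and 6.69%), with 1, 1, 2 and 2 as much lower (7.29%, 3.98%, 6.89% and 8.74%). Out of 92 such genes above background on both arrays, the higher counts are near the background. By sign, 77, 81, 64 and 50 of the 93 were positive at the 4 times, beside 32, 32, 28 and 14 of the 33 members. Averaged over the times, 78 of the 93 were positive.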

How the data were processed

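Liver RNA was labelled with Cy3 and hybridised to 8 Agilent arrays. Per the file headers, the deposited spot values are intensities from Feature Extraction 10.7.3.1 (10.7 in the submitters' processing notes), background-subtracted and detrended, with no scaling between arrays. The deposited value table holds log2 values; its scale was found from the values, each column correlating with log2 of its own array's signal at r of at least 0.999 across spots, with a common median of 5.51. It was an alternative source only.

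From log2 of the processed signal that of the array's 75th percentile was subtracted. Control spots and outlier-marked spots were dropped, and with them 118 of 41174 probes. Probes were named through RefSeq accessions (RefSeq table of GRCm38.p6, 26839 of 41056 probes, 18316 genes), and the probe with the highest mean stood for a gene. Of 16 members with several probes, all probes shared the sign of the genotype difference in 14, 15, 11 and 10 at 0, 24, 36 and 48 h. A gene was tested if 2 or more of the 8 arrays read it well above background. Per array, 60.2% to 66.0% of 43379 spots were well above background and none was saturated; replicate spots had a coefficient of variation of 4.56% to 6.17%. Precision is limited by having 8 arrays.

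All fits were made in R 4.3.3 with limma 3.58.1 (tables read with data.table, version 1.17.8) and had time and genotype as terms (3 residual degrees of freedom), or also genotype by late time (2), and Benjamini-Hochberg adjustment over 14142 genes. The test of the genotype difference in the additive model was checked on simulated data. The tests of time, the interaction model and the covariate fit were not. Pairs at 1 time were called by size (1.5-fold, both arrays well above background). A gene not above background on any array of a group has only a bound, the mean of the bright arrays against the lowest signal well above background on each dim array. Times were taken from the titles, not from a protocol label by which livers were analysed a week after surgery. Named members are those past an adjusted p of 0.05, or the 6 with the smallest p where fewer passed, and those past 1.5-fold in a pair; of the other lists at most 3 genes in each direction with the largest change. Creld2, Hspa5, Sdf2l1, Hyou1, Edem1, Ppp1r15a and Derl3 are also named in tests they did not pass, after their values were seen. The members and lists were chosen with earlier results of these data known. Alternatives were other scalings, background correction (normexp with offset 50, on the median signal since the files hold no mean signal), filters, probe rules, Y-linked level as a covariate, single slides and arrays left out; keeping marked spots was chosen after seeing the data. Figures were drawn with matplotlib.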

Additional observations from a re-analysis of the deposited data

Results flagged for a closer look

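Of the members, 2 moved in opposite directions after surgery in the 2 genotypes, each by more than 1.5-fold on single arrays. Creld2 at 48 h against 0 h changed by -2.24 in Mxcre+ liver and by 1.01 in Mxcre- liver. At 48 h against 36 h its change was -1.56 in Mxcre+ liver and 0.73 in Mxcre- liver. Manf at 48 h against 0 h changed by -0.86 in Mxcre+ liver and by 0.73 in Mxcre- liver. With 1 array for each value, these differences between the genotypes were not tested, and the genotypes were also unequal in Y-linked genes at 36 and 48 h but not at 0 h.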

How the results depend on the processing

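The counts over time were sensitive to single arrays and to few degrees of freedom. Members called higher at 24, 36 and 48 h against 0 h numbered 9, 9 and 4. Fewer were called with any 1 array left out, and the calls over all genes, higher and lower, fell in each of these fits too. All calls at 24 h, of members and of all genes, were lost without Mxcre- 24 h, Mxcre+ 0 h or Mxcre+ 24 h. Those at 36 h were all lost without the Mxcre+ or the Mxcre- array of 36 h. With 1 array left out the median over the members ran from 0.54 to 0.79 at 24 h and from 0.20 to 0.60 at 36 h. The 1 call lower at 48 h, Herpud1, was lost when an array of 0 or 48 h was left out. Each such fit lost 1 of 3 residual degrees of freedom, and an array alone at its time was taken to vary like the others. With the Y-linked covariate the calls were 0, 5 and 2 higher at 24, 36 and 48 h and 0 lower at 48 h. Over all genes that fit called 1, 583 and 647 higher at these times and 555 lower at 48 h. At 48 h the calls were 2 higher with no filter, 3 lower when all 8 arrays had to be above background, and 7 higher and 2 lower with normexp. Over all genes these settings gave 758 higher, 1585 lower, and 1451 higher and 1309 lower. In the genotype pairs, normexp gave 4 members higher at 36 h and 1 at 48 h, and keeping marked spots made 1 member, Xbp1, lower at 0 h. The cause was not tested beyond these constructions. The median at 48 h against 0 h was -0.16, ranged from -0.36 to 0.22 with 1 array left out, and turned positive without Mxcre+ 0 h (0.06) or Mxcre+ 48 h (0.22). It was near 0 with other scalings (-9e-04 with quantile normalization, -1e-04 with the deposited value table, -0.043 with normexp). These called 6, 6 and 7 members higher, and 1325, 1325 and 1451 of all genes. The median genotype difference ran from 0.20 to 0.36 without 1 pair, and was 0.46 with the Y-linked covariate. On the slide of 0 and 24 h alone it was 0.44. Y-linked level differed between the genotypes mainly at 36 and 48 h, so the covariate cannot be told apart from a genotype difference that changes late. The covariate fit also has 1 residual degree of freedom fewer than the main fit. The 0 calls for genotype held under every alternative run. Signal near background limits Kdelr3 at 0 h.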
